A study of Mus musculus with 12 samples.

Results

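These data describe the alternating purine-pyrimidine tracts that ZBTB43 captured from mouse DNA and that were not CA repeats. ZBTB43 is a BTB zinc-finger protein, and affinity sequencing measures which fragments of purified genomic DNA it holds in vitro. Full-length ZBTB43 fused to maltose-binding protein (MBP), and MBP alone as background, were each incubated with sonicated DNA of 2 kinds, with 2 libraries for each protein and DNA. SssI DNA was lung DNA of adult wild-type C57BL/6N males, 2 months old, whose CpGs were methylated in vitro with M.SssI. TKO DNA was unmethylated DNA of 1 clone of male TKO ES cells, an embryonic stem cell line of genotype Dnmt1-/-Dnmt3a-/-Dnmt3b-/- with a labelled age of 3.5 dpc, so the DNAs differed in cell source as well as in methylation. The labels give no background strain for the line, and all sequence here is that of the reference. The authors pooled duplicates and deposited 1 peak list per DNA, in which the score of a peak is 10 times the −log10 q-value against MBP. The lists therefore give no replicate error, no difference between the DNAs was tested, and the depth of the libraries is unknown from them. Intervals below are Wilson 95% intervals for shares and order-statistic 95% intervals for medians, and they cover counting error over peaks or tracts only. Tracts that lie close together can share a peak, and the intervals take them as independent, so those over tracts are likely too narrow.

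A peak was a member where its mm10 sequence held an alternating tract of 24 bp or more with at least 1 G or C, but no perfect CA repeat (CA or TG, in any phase) and no pure C-G run of 12 bp or more. Of 169284 autosomal SssI peaks 4240 were members, or 2.5% (2.43 to 2.58), and of 14554 autosomal TKO peaks 613 were members, or 4.21% (3.9 to 4.55). Together these are 4853 of the 190469 deposited peaks. By contrast, 150268 SssI peaks and 11849 TKO peaks paired a tract of that length with a CA repeat, and they are called CA-repeat peaks here.

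Alternating purine-pyrimidine DNA is the sequence type that most readily turns from the right-handed helix into left-handed Z-DNA. Runs of CG do so most easily and runs of CA less so, whereas alternating A and T rarely does. The CA dinucleotide is the commonest alternating repeat of the mouse genome.

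The sequences below show what the members looked like. All are the plus strand of mm10 in 5′ to 3′ direction. In the first set capitals mark each CA stretch, a perfect CA or TG run of 6 bp or more, over the 240 bp around the midpoint of members that ranked among the 5 highest scores of a list. They were chosen because they show the make-up of strongly captured members with many CA stretches (the first), with about the usual number (the second), with few (the third) and in a regular array (the fourth).
SssI member of rank 1, chr14:48988599-48988838: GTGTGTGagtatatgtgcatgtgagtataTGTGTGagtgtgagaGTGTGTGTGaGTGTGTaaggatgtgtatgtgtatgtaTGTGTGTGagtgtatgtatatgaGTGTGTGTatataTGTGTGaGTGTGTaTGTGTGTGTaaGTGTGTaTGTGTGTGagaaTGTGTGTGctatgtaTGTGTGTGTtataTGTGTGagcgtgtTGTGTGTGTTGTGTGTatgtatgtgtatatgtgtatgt
SssI member of rank 2, chr2:155619593-155619832: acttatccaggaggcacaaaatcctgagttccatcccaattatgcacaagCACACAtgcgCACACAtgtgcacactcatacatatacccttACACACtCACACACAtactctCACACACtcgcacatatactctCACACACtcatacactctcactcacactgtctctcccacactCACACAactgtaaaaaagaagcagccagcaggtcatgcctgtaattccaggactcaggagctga
SssI member of rank 3, chr11:20170397-20170636: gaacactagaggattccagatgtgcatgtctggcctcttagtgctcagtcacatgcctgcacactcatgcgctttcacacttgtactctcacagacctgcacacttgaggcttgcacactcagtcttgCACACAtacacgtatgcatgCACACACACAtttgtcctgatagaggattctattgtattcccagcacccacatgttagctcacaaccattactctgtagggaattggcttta
TKO member of rank 2, chr10:23808561-23808800: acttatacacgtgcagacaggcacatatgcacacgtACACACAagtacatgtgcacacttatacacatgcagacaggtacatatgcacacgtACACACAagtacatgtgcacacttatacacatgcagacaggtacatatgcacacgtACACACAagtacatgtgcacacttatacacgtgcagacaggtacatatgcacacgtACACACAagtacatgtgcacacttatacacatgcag
In the second set capitals mark the whole longest tract, with 10 flanking bases. Each is the highest-scoring SssI member whose longest tract followed the tandem repeat unit that names the line, the first free of CpG and the second rich in it.
ACAT unit, chr3:156583707-156583763: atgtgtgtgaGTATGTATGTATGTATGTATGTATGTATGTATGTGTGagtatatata
ACGC unit, chr5:143086267-143086361: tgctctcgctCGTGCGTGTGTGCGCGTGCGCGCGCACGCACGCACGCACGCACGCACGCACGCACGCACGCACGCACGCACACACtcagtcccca
The last sequence pair shows genomic tracts that lay in no peak of either list, the first with the ACAT unit and the second from the AT-rich class without CpG or tandem unit, each of the median length of such uncaptured tracts.
Uncaptured ACAT tract, chr1:25940008-25940069: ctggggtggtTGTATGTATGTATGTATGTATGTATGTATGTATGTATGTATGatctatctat
Uncaptured AT-rich tract, chr1:3886832-3886885: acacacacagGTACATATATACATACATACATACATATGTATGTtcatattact

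In the first set, CA stretches were short and separated by other bases, and their number varied widely. The SssI member of rank 1, at chr14:48988408-48989030 and 15.4 kb from Exoc5, a subunit of the exocyst that tethers secretory vesicles, had a score of 2327. It held 18 CA stretches that covered 139 bp, and its longest alternating tract measured 42 bp. The member of rank 2, at chr2:155619456-155619970 in intron 11 of Myh7b, a myosin heavy chain gene, scored 2293 with 7 CA stretches. The member of rank 3, at chr11:20170250-20170783 and 30.9 kb from Rab1a, a GTPase of transport from the endoplasmic reticulum to the Golgi, was a different case. It scored 2270 with only 2 CA stretches, 16 bp in all, and 1 alternating tract of 12 bp or more. The same site was the TKO member of rank 4, with a score of 2917 at chr11:20170304-20170737, so a member with few CA stretches stood near the top of both lists. Its sequence also holds shorter CA runs, which are not counted as stretches.

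The SssI member of rank 4, at chr9:111416093-111416656, lay 20.6 kb from Trank1 and scored 2268 with 14 CA stretches. The member of rank 5, at chr5:114220897-114221724 in intron 28 of Acacb, the acetyl-CoA carboxylase of the mitochondrial surface, scored 2248 with 28. All 5 of these SssI members overlapped a TKO peak, and for 4 of them that peak was itself a member.

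The TKO member of rank 1, at chr2:158535636-158536275 in intron 6 of Arhgap40, scored 3340 and had 21 alternating tracts of 12 bp or more that covered 380 of its 640 bp. The TKO member of rank 2, at chr10:23808191-23809171 in intron 5 of Slc18b1, a vesicular polyamine transporter gene, scored 3272. In the 240 bp shown the same CA stretch recurs at a regular step, and the whole peak held 38 tracts of 12 bp or more over 655 bp. Rank 3, at chr5:105965305-105965765, and rank 5, at chr3:147000063-147000531, scored 2926 and 2881 and held 18 and 15 CA stretches. All 5 TKO members overlapped an SssI member.

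**Figure D1:**
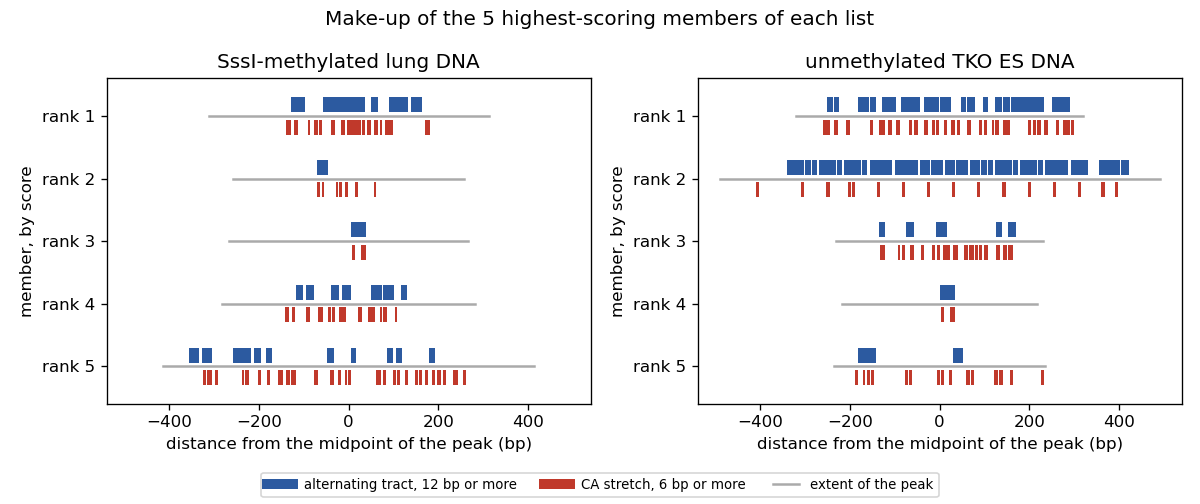
Each row is 1 of the 5 highest-scoring members of a list, drawn from the midpoint of the peak (x axis, bp), with alternating tracts of 12 bp or more in blue above the grey extent of the peak and CA stretches of 6 bp or more in red below it. Rows hold between 2 and 32 CA stretches, and the SssI member of rank 3 and the TKO member of rank 4 are the same site.

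Over all members, CA stretches were nearly always there. Only 39 of 4240 SssI members, 0.92% (0.674 to 1.25), and 4 of 613 TKO members had no CA stretch of 6 bp. The median SssI member held 6 stretches that covered 47 bp, whereas the median CA-repeat peak held 2 that covered 52 bp. SssI members thus carried nearly as much CA, in more pieces. The rule keeps each stretch of a member under 12 bp, so the greater number of pieces follows in part from the choice of members. At least 4 stretches were found in 81.5% of SssI members against 28.2% of CA-repeat peaks. The median TKO member held 11 stretches over 81 bp and the median CA-repeat peak 8 over 113 bp. The longest stretch was 10 or 11 bp in 63.2% of SssI members and in 70% of TKO members, that is, just under the 12 bp at which the rule sets a peak aside.

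The tracts themselves were shorter than those of CA-repeat peaks. The longest tract had a median of 35 bp in members of either list, against 47 bp in SssI and 51 bp in TKO CA-repeat peaks. The longest of all measured 398 bp in an SssI member and 558 bp in a TKO member. Alternating tracts of 12 bp or more numbered 3 in the median SssI member and 1 in the median CA-repeat peak, and in the TKO list 6 and 4. At the length limit, SssI members with a tract of 24 or 25 bp had a median score of 88.5, and peaks with 22 or 23 bp that otherwise followed the rule had 82. SssI peaks just past the other limit, with a CA run of 12 or 13 bp, had a median score of 132, against 114 in members whose longest CA stretch was 10 or 11 bp.

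A CpG lay in the longest tract of 1954 SssI members, 46.1% (44.6 to 47.6), which is more than the 29.7% (29.4 to 29.9) of CA-repeat peaks. For TKO members the share was 40.5% (36.6 to 44.4), close to the 41.6% (40.7 to 42.5) of CA-repeat peaks. By the rule every CA run in a member is broken before 12 bp, and a CpG is 1 of the possible breaks. The comparison with CA-repeat peaks is therefore not independent of how members were chosen. Another 2247 SssI members, 53%, had a longest tract without CpG but with 25% or more G and C. The AT-rich class, without CpG and under 25% G and C, made up 0.92% of SssI members (39 peaks) and 0.979% of TKO members (6 peaks). Median scores of SssI members were 101 (96 to 109) with a CpG in the tract and 99 (91 to 108) without one but with 25% or more G and C, so these classes did not differ beyond their intervals, and 67 (38 to 99) in the AT-rich class. The TKO medians of the first and second class were 160 (141 to 192) and 129 (106 to 147), with intervals that overlapped in a narrow range, and the 6 AT-rich TKO members had 81 (37 to 440).

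In most members the longest tract followed no short tandem unit. Longer steps were not looked for, and the regular array in Slc18b1 had no such unit in its longest tract. A tandem unit of up to 12 bp was found in the longest tract of 424 SssI members, or 10%, and of 46 TKO members, or 7.5%. The commonest was ACAT, with 54 SssI members and a median score of 58.5, followed by ACACACACACAT with 50 and a median of 87. ACACACACAT had 41 members, ACACACAT 37, and ACACAT and ACGC 34 each. Apart from ACGC, these units are runs of CA interrupted by AT. The ACGC member, at chr5:143086184-143086451 in intron 6 of Rnf216, an E3 ubiquitin ligase gene, held 20 CpGs, scored 623 and had no TKO peak over it.

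With repeats looked for inside the peak alone, members scored below CA-repeat peaks. The median score of SssI members was 99 (96 to 107) and that of CA-repeat peaks 109 (109 to 111). The TKO medians were 142 (124 to 159) and 191 (183 to 197). Among TKO members free of CA and CG repeats for 100 bp on either side as well, the median was 182 (157 to 210), an interval that covers the value of CA-repeat peaks. SssI members under the same setting had 102 (96 to 109), an interval that just reaches the 109 of CA-repeat peaks. Peaks without a tract of 24 bp stood below members in the SssI list, with a median of 80, and above both kinds in the TKO list, with 240 (213 to 268). At the low end, 13.9% of SssI members fell in the lowest-scoring 10% of their list, against 8.59% of CA-repeat peaks, yet 10.9% (9.99 to 11.9) also reached the top 10%, which held 9.91% of CA-repeat peaks. Compared at like width, SssI members scored lower in each width class. Those of 200 to 249 bp had a median of 125 and CA-repeat peaks 161, and at 350 bp or more the medians were 679 and 960. Compared at like length of the longest tract, the order was not uniform. At 28 to 35 bp SssI members had 96 (91 to 107) and CA-repeat peaks 80 (79 to 80). At 24 to 27 bp and 36 to 59 bp SssI members were also higher, but the intervals overlapped. At 60 bp or more they were lower, with 135 (109 to 150) against 242 (240 to 250). TKO members had the lower median in each length class. In the SssI list the median score was higher with more CA from 24 bp upwards. SssI members with 24 to 47 bp in CA stretches had a median of 69 (63 to 70), those with 48 to 95 bp 126 (120 to 133), and those with 96 bp or more 384 (332 to 439). These peaks also widened, from a median of 168 bp to 430 bp. The TKO medians in the same classes were 102 (72 to 152), 107 (98 to 135) and 233 (175 to 325), so only the last stood apart. TKO members with less CA did not score lower, with 157 (86 to 309) at 12 to 23 bp (27 members).

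The longest tract was not where the peak was centred in most members. It covered the midpoint in 38.1% (36.6 to 39.6) of SssI members and in 64.8% of CA-repeat peaks, and in 25.1% (21.9 to 28.7) of TKO members and 44% of CA-repeat peaks. Within 50 bp of the midpoint the share rose to 84% of SssI members and 67.9% of TKO members. A CA repeat of 12 bp or more lay within 100 bp outside the peak in 4.88% of SssI members but in 26.6% (23.2 to 30.2) of TKO members, against 2.71% and 18.7% of CA-repeat peaks. TKO members thus bordered on a CA repeat more often than SssI members did.

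Of SssI members 422, or 9.95% (9.09 to 10.9), overlapped a TKO peak, against 8.47% of all autosomal SssI peaks. Of TKO members 610, or 99.5%, overlapped an SssI peak, against 99.4% of all autosomal TKO peaks. The first share lay a little above that of its list, and the second was the same within counting error. Where an SssI member had a TKO peak over it, that peak was a member in 94.1% (91.4 to 96) of cases. Where a TKO member had an SssI peak over it, that peak was a member in 65.6% (61.7 to 69.2) and held a CA repeat in 34.3% (30.6 to 38.1), and it was the wider of the pair in 97.7%. SssI members with a TKO peak were the high-scoring ones, with a median of 1193.5 against 88.5 for the other 3818. In the top 10% of the SssI list 72.7% of members and 68.9% of CA-repeat peaks overlapped a TKO peak.

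The members are only those tracts that were captured, so every alternating tract of 24 bp or more with a G or C on the autosomes was also counted, 425565 in all. Of these 48.3% overlapped an SssI peak and 6.6% a TKO peak. Tracts with a CA repeat overlapped an SssI peak in 60.3% (60.1 to 60.5). Tracts without a CA or CG repeat in themselves or within 100 bp, 107412 in number, did so in 12.9% (12.7 to 13.1). For TKO peaks the shares were 7.42% (7.32 to 7.51) and 2.29% (2.2 to 2.38). Both fell short of the share of all tracts, and at other distances from a CA repeat the 12.9% ran from 23.8% (0 bp) to 9.75% (200 bp).

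Composition divided these tracts more than length did. Tracts with 25% or more G and C and no CpG overlapped an SssI peak in 21.5% (21.1 to 21.9), and tracts with a CpG in 17.2% (16.7 to 17.7). AT-rich tracts did so in 0.642% (0.568 to 0.726), although their median length of 40 bp was the greatest of the classes. Among the longest, of 60 bp or more, the AT-rich share was 0.482% (34 of 7051), against 32% and 27.5% in the other classes. Only 21 of 39551 AT-rich tracts lay in a TKO peak. With increasing length, the share in SssI peaks rose from 12.6% at 24 to 27 bp to 27.5% at 60 bp or more for tracts with a CpG, and from 19.1% to 32% for those with 25% or more G and C and no CpG. For AT-rich tracts it fell from 1.22% (0.994 to 1.5) to 0.482% (0.345 to 0.673).

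The tandem units showed the same division at sequence level. Of 6761 genomic ACAT tracts 2.53% (2.18 to 2.93) overlapped an SssI peak. For ACACAT the share was 19.1% (15.2 to 23.8), for ACACACAT 41.8% (35 to 48.8), and for ACACACACAT 51.5% (45.8 to 57.1). The share was thus higher with more CA between the ATs, although the intervals of the last pair overlapped, and the next unit, ACACACACACAT, stood at 37.7% (32.9 to 42.9). Median lengths did not follow that order, with 42 bp for ACAT, 71 bp for ACACAT and 27 bp for ACACACACAT. Tracts of the AT unit, which hold a stray G or C, overlapped an SssI peak in 9 of 12105 cases. The ACGC unit, rich in CpG, did so in 20.3% (15.2 to 26.6), a share like that of ACACAT, and in 1 of 192 cases lay in a TKO peak.

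Sorted by the longest CA stretch within the tract, the share in SssI peaks was 0.346% (0.282 to 0.425) at 3 bp or less, 4.37% at 4 or 5 bp, 14.8% at 6 or 7 bp and 25.6% (25 to 26.2) at 8 or 9 bp. It stayed at 25.6% (24.9 to 26.3) at 10 or 11 bp. Shares in TKO peaks rose from 0.038% to 5.15% (4.8 to 5.52). Past the limit of the rule, tracts with a CA run of 12 to 15 bp overlapped an SssI peak in 43.2% (42.6 to 43.8) and a TKO peak in 12.4% (12 to 12.8). Unlike the tracts below the limit, these were not kept free of further repeats within 100 bp. The size of the step across the limit therefore cannot be read from these shares. Up to 8 or 9 bp the SssI share rose within each length class of tracts, and with and without a CpG in the tract. The last step differed: without a CpG the share fell from 26.6% (25.9 to 27.3) to 24.7% (23.9 to 25.6), and with one it rose from 23.2% (22.2 to 24.2) to 27.4% (26.2 to 28.7).

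**Figure D2:**
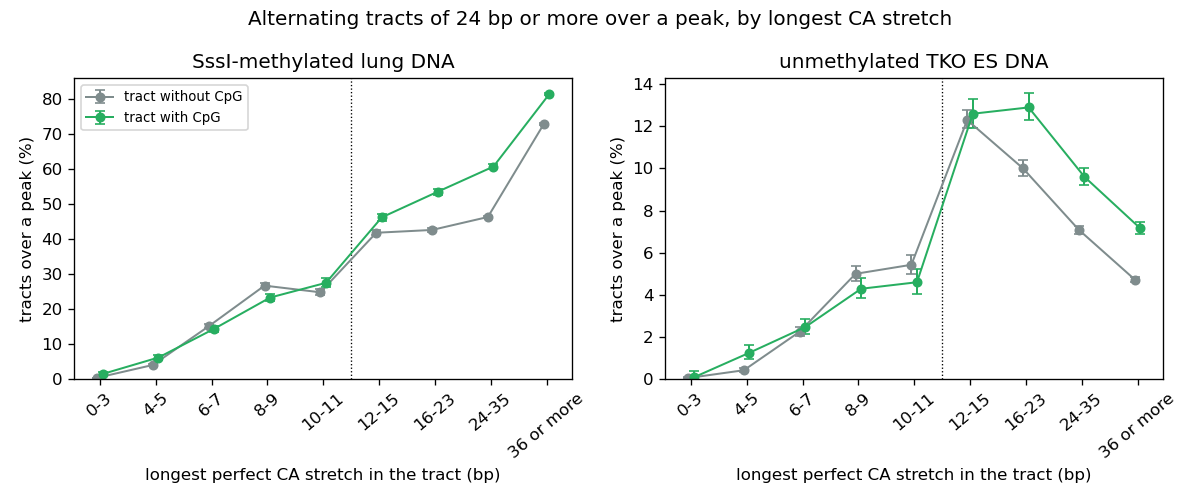
Share of autosomal alternating tracts of 24 bp or more that overlapped a peak (y axis, %), by the longest perfect CA stretch in the tract (x axis, bp), for tracts without and with a CpG; bars are Wilson 95% intervals. Left of the dotted line are tracts free of CA and CG repeats in themselves and within 100 bp, which in the SssI list run from 0.283% to 24.7% without a CpG and from 1.37% to 27.4% with one. Right of it are tracts with a CA repeat, with no limit on repeats nearby.

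The CA content of a window centred on the tract, which includes the tract itself, separated captured from uncaptured tracts more sharply. For this the 98345 tracts with no CA or CG repeat within 200 bp were sorted by the bases that CA stretches of 6 bp or more covered in the 300 bp around the tract. With 0 to 5 bp, 0.192% (0.145 to 0.255) overlapped an SssI peak. With 24 to 35 bp it was 7.49% (7.02 to 7.99), with 36 to 59 bp 33.1% (32.1 to 34.2), and with 60 bp or more 84.8% (83.9 to 85.6). The TKO shares in the same classes were 0.0368%, 0.337%, 1.82% (1.55 to 2.14) and 18.2% (17.3 to 19.2). Nearby tracts share part of their windows, and with 1 tract kept per 300 bp the last SssI share was 85.5%. The CA of the tract and that of its surroundings were not separated. At 36 to 59 bp in the window, the SssI share was 20.6% (18.1 to 23.3) where the longest CA stretch in the tract was 5 bp or less. It was 40% (37.9 to 42.2) where that stretch was 10 or 11 bp.

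Where CA stretches covered 24 to 59 bp, the number of alternating tracts made little difference in the SssI list. With 36 to 59 bp of CA stretches, the share in SssI peaks was 31.7% (27.9 to 35.7) where the window held 1 alternating tract of 12 bp or more and 32.6% (30.9 to 34.2) where it held 5 or more. With 24 to 35 bp the shares were 7.23% (6.34 to 8.23) and 6.28% (5.22 to 7.53). In neither class did the intervals separate. With 60 bp or more they stood further apart, at 72.4% (59.8 to 82.2) and 85.1% (84.1 to 86), and with under 6 bp at 0.13% (0.0849 to 0.198) and 1.97% (1.1 to 3.5). In the TKO list the shares at 36 to 59 bp were 1.65% (0.87 to 3.1) with 1 tract, 0.832% (0.465 to 1.48) with 2 and 2.41% (1.93 to 3) with 5 or more. There the intervals with 2 and with 5 or more did not overlap. For the length of the tract itself there was no rise at 36 to 59 bp of CA, where tracts of 24 to 27 bp overlapped an SssI peak in 34.1% (32.2 to 36) and tracts of 60 bp or more in 27.4% (24.4 to 30.7). With under 6 bp the same length classes gave 0.071% (0.0276 to 0.182) and 0.652% (0.422 to 1).

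At a like class of CA, tracts with an unbroken CA repeat were more often captured in the SssI list. Tracts with a CA repeat and 24 to 35 bp in the window overlapped an SssI peak in 20.4% (20 to 20.7), and with 36 to 59 bp in 61.1% (60.8 to 61.3), against the 7.49% and 33.1% of tracts without a CA repeat. In the TKO list the order at 36 to 59 bp was the reverse, with 0.792% (0.747 to 0.84) against 1.82%. At 60 bp or more tracts with a CA repeat were ahead in both lists, with 93.4% and 25.1%. Within a class the amounts of CA could still differ between the sets.

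**Figure D3:**
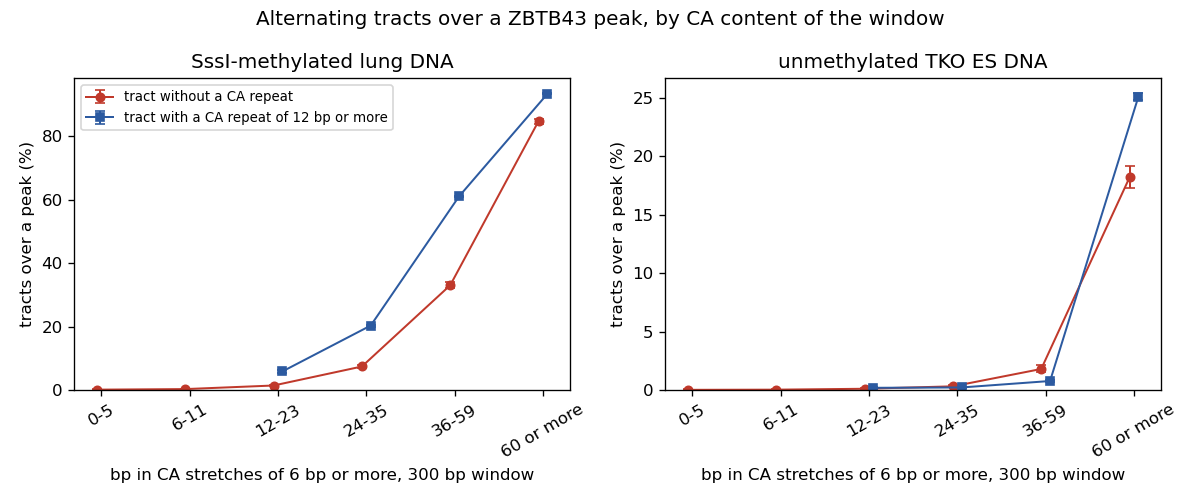
Share of alternating tracts that overlapped a peak (y axis, %), by the bases covered by CA stretches of 6 bp or more in the 300 bp around the tract (x axis), for tracts with no CA or CG repeat within 200 bp (red) and tracts with a CA repeat (blue); bars are Wilson 95% intervals and classes with fewer than 20 tracts are not drawn. Red points run from 0.192% to 84.8% in the SssI list and from 0.0368% to 18.2% in the TKO list.

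CpGs in the window went with capture in both lists. At 36 to 59 bp of CA, the share of these tracts in SssI peaks was 19.7% (17.9 to 21.6) without a CpG in the window, 28.5% (26.7 to 30.5) with 1, 36% (34.1 to 37.9) with 2 or 3, and 52.8% (50.2 to 55.5) with 4 or more. In the TKO list, where the DNA was unmethylated, it was 0.445% (0.226 to 0.875) without a CpG and 4.42% (3.45 to 5.65) with 4 or more. Where CA stretches covered under 6 bp, the SssI share was 0.0885% (0.0448 to 0.174) without a CpG and 1.19% (0.804 to 1.77) with 4 or more.

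**Figure D4:**
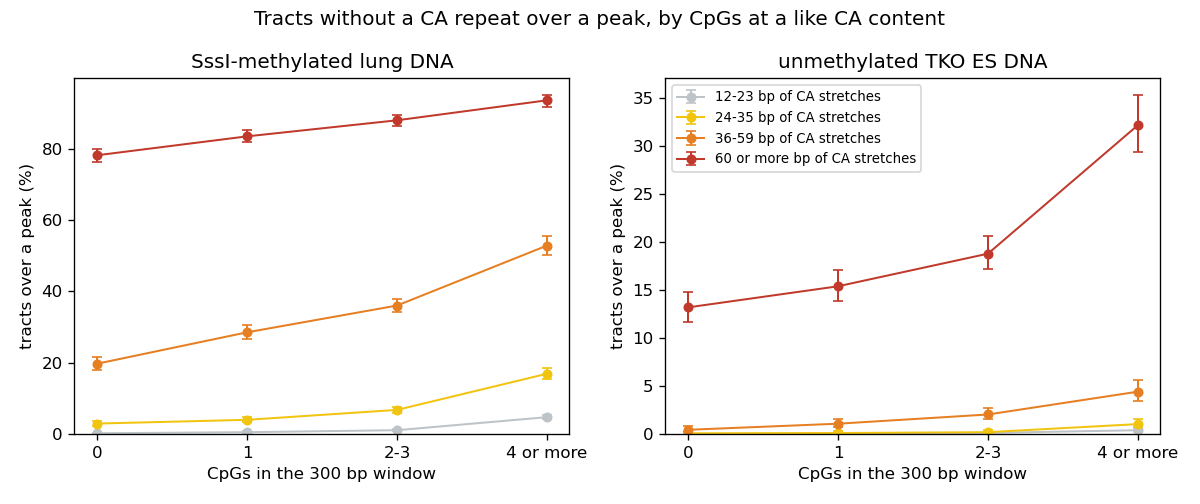
Share of tracts with no CA or CG repeat within 200 bp that overlapped a peak (y axis, %), by the number of CpGs in the 300 bp around the tract (x axis), with a line for each amount of CA stretches; bars are Wilson 95% intervals. At 36 to 59 bp the SssI share rises from 19.7% to 52.8%, and the 4 lines, for 12 bp of CA or more, keep their order at each number of CpGs.

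Members often held broken words made of CA and a few other bases. All words of 8 bases with at least 1 break in the alternation were counted, with both strands combined, and the one whose share differed most between SssI members and SssI CA-repeat peaks was CACACTCA, or TGAGTGTG on the other strand. It starts with a CA run of 5 bp and so can overlap a CA stretch, and it was picked with the SssI values in view. By the rule every CA run in a member is broken before 12 bp, which can favour words of CA with a break. The comparison of broken words with CA-repeat peaks is therefore not independent of how members were chosen. Another 4 such words, ACACACAA, AACACACA, AGTGTGTG and ACACACAG, were commoner in SssI members, at 30.8% to 35.6%, but also lay in 28% to 31.5% of CA-repeat peaks. Words that share most of its letters behaved alike: ACACTCAC lay in 23.8% (22.5 to 25.1) of SssI members and 12.4% (12.3 to 12.6) of CA-repeat peaks, and ACTCACAC in 23% and 11.8%. It lay in 1293 SssI members, 30.5% (29.1 to 31.9), and in 15.1% (14.9 to 15.3) of CA-repeat peaks. Among TKO peaks it lay in 57.9% (54 to 61.8) of members and 46% (45.1 to 46.9) of CA-repeat peaks. Of all autosomal windows of 300 bp, laid end to end, 2.2% held it.

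Shares with the word rose with score in members and in CA-repeat peaks alike. They were 16.9% in SssI members of the lowest-scoring 25% of the list and 61.8% (57.3 to 66.1) in those of the top 10%, and in the TKO list 44.4% and 81.8% (68 to 90.5). In CA-repeat peaks the same classes gave 5.47% and 47% (46.2 to 47.8) in the SssI list, and 29.9% and 81.8% (79.4 to 84) in the TKO list. Members with 4 or more copies had a median score of 1287 in the SssI list (119 members) and 464 in the TKO list (105), against 83 and 101 in members without the word. They were also wider, with medians of 519 bp and 357 bp against 192 bp and 216 bp. At a like width of 200 to 249 bp the word lay in 30.6% (27.4 to 34) of SssI members and 13.9% (13.6 to 14.3) of CA-repeat peaks. Since the word was picked for that difference, the width class does not test it. In the top 10% of the TKO list the word lay in 81.8% of both kinds. Of the SssI members with 4 or more copies 77.3% (69 to 83.9) overlapped a TKO peak, and of those without it 5.5% (4.73 to 6.38). The site on chromosome 11 with 16 bp in CA stretches held 2 copies, the SssI member of rank 1 held 6 and the TKO member of rank 1 held 18, whereas the array in Slc18b1 held none.

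Within a class of CA, tracts with the word in their window overlapped a peak more often than tracts without it. Windows with the word could still hold more CA. Its CA run of 5 bp can fall below the 6 bp that is counted. The counted CA at 36 to 59 bp had a median of 44 bp without the word, 45 bp with 1 copy and 48 bp with 2 or more. At 36 to 59 bp of CA, tracts with no CA or CG repeat within 200 bp overlapped an SssI peak in 27.8% (26.7 to 28.9) without the word, 56.1% (53.1 to 59.1) with 1 copy and 80.5% (74.8 to 85.2) with 2 or more. At 12 to 23 bp the shares were 1.18% (1.05 to 1.32), 6.15% (4.97 to 7.57) and 27.4% (17.9 to 39.6). In the TKO list they were 0.787% (0.599 to 1.03), 4.59% (3.48 to 6.04) and 19% (14.4 to 24.7) at 36 to 59 bp. At 60 bp or more 55.1% (51.9 to 58.2) of tracts with 2 or more copies overlapped a TKO peak, against 10.4% (9.61 to 11.4) of tracts without the word. The word was picked for its share in SssI members, which are captured by definition, so the SssI shares are not independent of the choice. Since nearly all TKO peaks overlap SssI peaks, the TKO list is not independent of it either. Neither list tests the word.

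**Figure D5:**
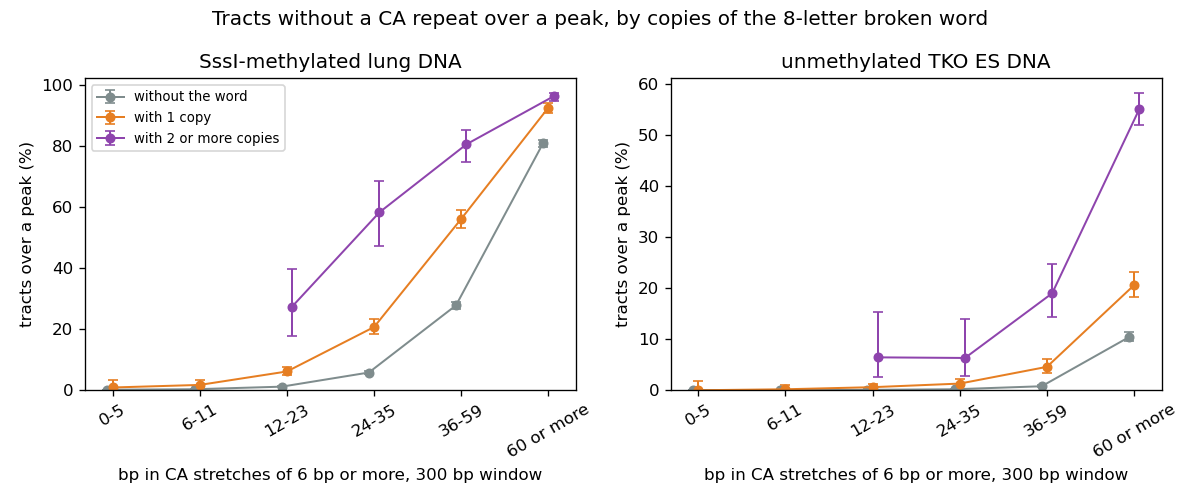
Share of tracts with no CA or CG repeat within 200 bp that overlapped a peak (y axis, %), by the bases covered by CA stretches in the 300 bp around the tract (x axis), for windows with no copy, 1 copy or 2 or more copies of the broken word; bars are Wilson 95% intervals and classes with fewer than 20 tracts are not drawn. At 36 to 59 bp the SssI shares are 27.8%, 56.1% and 80.5%.

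Most members lay in introns or between genes. By midpoint 51.6% (50.1 to 53.1) of SssI members lay in introns and 43.5% (42.1 to 45) between genes, against 48.4% and 46.1% of CA-repeat peaks, and 3.25% lay within 3000 bp upstream of a gene. A coding exon held 1 SssI member and no TKO member. Chromosome 5 had the most members, 400 in the SssI list and 68 in the TKO list, which were 3.44% (3.12 to 3.78) and 6.39% (5.07 to 8.02) of its peaks. The lowest share of SssI peaks was on chromosome 7, with 1.97% (1.71 to 2.27). Of the genomic tracts without a CA or CG repeat within 100 bp, 18.3% overlapped an SssI peak on chromosome 5 and 10.1% on chromosome 7.

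Of 1824 genes with an SssI member inside, 1464 had 1 and 26 had 5 or more. The gene model with the most was Gm20388, with 17 members, but it spans 4434.9 kb and other genes lie within it. Rbms3, which encodes an RNA-binding protein, held 11 of its 195 SssI peaks as members over 1057.2 kb. Ank3, the gene of the cytoskeletal adaptor ankyrin-G, held 7 of 77, or 9.09%. Cdh13, which encodes T-cadherin, held 7 of 169, or 4.14%. Fgfr2, a fibroblast growth factor receptor gene whose model spans 2960.9 kb, held 7 of 265, or 2.64%, close to the 2.5% of the whole list. Kcnj6, Mecom and Ptprm were among the genes tied with them at 7. Of these, Kcnj6, a potassium channel gene, was the shortest at 249 kb, and members were 16.3% of its 43 SssI peaks.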

How the data were processed

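Affinity sequencing of 12 libraries is described in the series, and the 8 made from SssI and TKO DNA were used here as 2 pooled lists. The 4 sperm libraries were not analysed here. The authors aligned reads to mm10 with bwa mem 0.7.17, combined duplicates and called peaks with MACS2 2.2.7.1 at default parameters (q-value under 0.05) against MBP, which gave the deposited score of each peak. The lists hold no counts, fold enrichment or summit, and their peak numbers run past their length, so some called peaks were removed before deposit. Depth and the precision it gives are unknown, and the midpoint was used. Scores were compared only within a list.

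From these lists, tracts were found on GRCm38, the assembly that mm10 names, with numpy 2.4.6 and pandas 2.3.3 in Python 3.11.15. Variants in the DNA used were not seen. The tract and overlap counts were tested on simulated data, and overlaps of 1 bp were checked against bedtools 2.31.1. Intervals came from scipy 1.17.1, and figures were drawn with matplotlib 3.10.9. A tandem unit is the smallest even period of up to 12 bp that 90% of positions follow. Genes are those of GENCODE M21, which is built on GRCm38, by the midpoint of the peak.

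Named regions were the 5 members of highest score in each list, the highest-scoring SssI member of each of the 5 commonest units (6 units, since the fifth place was tied) and the 5 genes with the most SssI members, with ties in alphabetical order. Some of these regions and genes are not reported here. The members and lists were chosen with earlier results of these data known. The 300 bp windows and the broken word were added after values had been seen. Alternatives covered the minimum tract (20 and 30 bp), the CA and CG limit (10 and 16 bp), where repeats were looked for, the overlap (50%), the distance from repeats and the q-value (1e-05).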

Additional observations from a re-analysis of the deposited data

How the results depend on the processing

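Of 73 alternatives planned over 11 results, 35 stayed within the interval of the value reported, or for counts within 1.5 times of it, and 38 did not. The length of CA run that keeps a peak out decided the number of members. With a limit of 10 bp there were 1552 SssI and 183 TKO members, and with 16 bp 10702 and 1569. Their median scores were then 82 and 104, and 119 and 162, and the share of SssI members over a TKO peak was 7.28% and 12.2%. That share was 11.8% at a q-value under 1e-05 and 8.04% where 50% of a member had to be covered. Median scores were 138 (SssI) and 168 (TKO) at a q-value under 1e-05, and 182 for TKO members free of CA repeats for 100 bp on either side, whose share with a CpG in the tract was 45.3%. The share of SssI members with a CpG in the longest tract was 43.1%, 49.6% and 47.7% with tracts of 20 bp, of 30 bp and with the 10 bp limit, and the share with the tract over the midpoint 33.2%, 44.5% and 40.5%, or 84% within 50 bp.

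The share of genomic tracts over an SssI peak was 12.4% with 50% of the tract covered, 12.6% and 12.4% with tracts of 20 and 30 bp, 6.56% and 19.6% with CA limits of 10 and 16 bp, 23.8% and 9.75% with distances of 0 and 200 bp, and 11.5% at a q-value under 1e-05. Over a TKO peak the shares that moved were 2.18%, 2.12% (30 bp), 0.844%, 3.98%, 4.94%, 1.48% and 2.12%, in that order. In windows of 200 bp, chosen after seeing the data, the share over an SssI peak was 91.8% at 60 bp or more of CA, and at 36 to 59 bp 91.7% with 2 or more copies of the word and 48.6% without it. At a q-value under 1e-05 it was 79.6% at 60 bp or more, 0.135% under 6 bp, and 20.9% without the word at 36 to 59 bp. With 1 tract kept per 300 bp the last was 29.3%, and 86.3% with 2 or more copies. No paired analysis was possible because the duplicates were pooled before peak calling, and with no depth in the lists an uncaptured tract could not be told from one below the limit of detection.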
